A study of Mus musculus with 6 samples.

Results

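Malat1, Neat1, Kcnq1ot1 and Tug1 are long noncoding RNAs that are known mainly from the nucleus, although Tug1 is found in the cytoplasm as well. These 4 genes were taken by symbol from count tables that list 23420 genes, and all 4 were present in every table. Small RNA was sequenced from the mouse fibroblast line NIH 3T3, and every library came from cells transfected with the pEGFP-NXF3 plasmid. The 3 input libraries were made without antibody. The 3 pulldown libraries were made from RNA recovered with anti-GFP antibody, raised against the GFP that tags NXF3 (Abcam #ab290, on protein A beads). NXF3 is related to the mRNA export receptor NXF1. The labels speak of 3 independent experiments on this one cell line, and the 6 libraries include no immunoprecipitation without the bait. Library products of 30 to 375 nucleotides were kept on a gel, after 14 cycles of PCR. Each of the 4 RNAs is far longer than that, so their reads come from fragments or from short processed products and do not measure the intact RNA.

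Most messenger RNAs leave the nucleus through nuclear export factors, whereas Malat1, Neat1 and Kcnq1ot1 mostly stay there. Malat1 gathers in nuclear speckles, which hold splicing factors, and Neat1 is the scaffold of paraspeckles. Kcnq1ot1 is transcribed from the paternal chromosome and silences neighbouring imprinted genes in cis, and Tug1, an RNA found in nucleus and cytoplasm, has been linked to Polycomb silencing. Malat1 and the long form of Neat1 are not polyadenylated in the usual way. RNase P cuts them behind an A-rich tract, which folds with upstream U-rich motifs into a triple helix that protects the new end. The piece cut from Malat1 is a short tRNA-like RNA known as mascRNA.

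Annotated in GENCODE M21 on mouse build GRCm38, all 4 genes lie on the minus strand. Malat1 (ENSMUSG00000092341.3) is at chr19:5795690-5802672, and Neat1 (ENSMUSG00000092274.3) at chr19:5824708-5845478, 22035 bases away. Kcnq1ot1 (ENSMUSG00000101609.2) is at chr7:143203458-143296549 and Tug1 (ENSMUSG00000056579.18) at chr11:3639785-3649673. The longest transcripts of Malat1 (6983 nucleotides), Neat1 (20771) and Kcnq1ot1 (93092) have 1 exon each, and that of Tug1 (6719) has 2. The submitters' processing notes name the older build mm9, so these coordinates describe the genes and are not those used for counting. Kcnq1ot1 lies wholly within Kcnq1 on the opposite strand, and Tug1 shares 483 bases with Morc2a on the opposite strand. The sources used here do not give the strand setting of the counting. Kcnq1 had 0 reads in every library, and Morc2a had 62 reads in all 6 together.

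The 3′ ends of Malat1 and Neat1 are shown because RNase P cuts there. From Malat1 the cut yields a short processed RNA, the size class that these libraries hold. The Neat1 stretch ends with the A-rich tract and holds no such piece. Both stretches are read 5′ to 3′ from GENCODE M21 transcripts. The Malat1 stretch covers positions 6591 to 6757 of its longest transcript (GRCm38 chr19:5795916-5796082, minus strand), and the Neat1 stretch covers positions 20671 to 20771, the end of the longest Neat1 transcript (GRCm38 chr19:5824708-5824808, minus strand). Capitals mark, in order, 2 runs of at least 10 bases that both genes hold in the 90 bases before the A-rich tract, the tract itself and, in the Malat1 stretch, a tRNA-type B box.
Malat1: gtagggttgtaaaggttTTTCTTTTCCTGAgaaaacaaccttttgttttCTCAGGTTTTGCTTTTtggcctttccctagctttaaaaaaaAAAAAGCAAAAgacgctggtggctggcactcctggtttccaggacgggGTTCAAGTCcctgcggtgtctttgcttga
Neat1: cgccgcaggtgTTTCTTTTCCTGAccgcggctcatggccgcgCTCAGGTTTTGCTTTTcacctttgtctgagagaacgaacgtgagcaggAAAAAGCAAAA

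The letters show how alike both ends are. The run TTTCTTTTCCTGA, of 13 bases, stood in 35 of 141767 GENCODE transcripts (0.0247%, or 0.0585% on either strand). The run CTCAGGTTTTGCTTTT, of 16 bases, stood in 2 transcripts, one of Malat1 and one of Neat1 (0.00141%, and the same share on either strand). The A-rich tract was searched as AAAAAGCAAAA, the last 11 bases of the longest Neat1 transcript. It was found in 0.436% of transcripts on the sense strand, in 0.858% on either strand and in 0.107% within the last 400 bases. It ended 9 transcripts in all, and in Malat1 it stood 292 bases before the end. On the opposite strand the same letters matched positions 6646 to 6656 of Malat1, overlapping the second shared run. The longest transcripts of Kcnq1ot1 and Tug1 held these letters on neither strand.

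The B box, searched as GTTCNANNC, is an internal promoter element of tRNA genes. In Malat1 it stood at positions 6729 to 6737, 37 bases behind the tract. These letters are short and common: 23.7% of transcripts held them on the sense strand, 38.8% on either strand and 7.66% within the last 400 bases. The other 3 RNAs held them too, elsewhere in their transcripts, so here they only mark the place of the tRNA-like piece. The count tables give 1 number per gene, so the part of the Malat1 reads that came from the tRNA-like piece was not measured here.

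Gene counts totalled 1884117 to 3935088 per input library and 769570 to 6946284 per pulldown library, and pulldown 1 was the shallowest. Levels are given as counts per 1000000 gene counts (CPM) after TMM, a scaling that sets the libraries level for the bulk of genes. The TMM factor was lowest in pulldown 2 (0.609) and highest in pulldown 1 (1.95), so CPM by total counts is given beside it where they differ. Nxf3, the gene of the bait, averaged 790 ± 329 CPM in input libraries against 1140 ± 380 after pulldown (n = 3 per group, SD), a count of RNA and not of recovered protein. Of 18 fibroblast markers 17 had reads, Lum being at 0, and they took 0.0292% to 0.0416% of input and 0.0178% to 0.0793% of pulldown counts. Epithelial markers had 0 reads for 7 of 7 genes, and the leukocyte and the adipocyte markers each summed to at most 1 read per library. Of 1852 genes tested between pulldown and input with edgeR's quasi-likelihood test, 1 was called at an adjusted p under 0.05, 2900060B14Rik, with a log2 fold of -2.77.

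None of the 4 RNAs was called different between pulldown and input, against a background of 0.054% of tested genes called. After TMM, Malat1 and Neat1 were higher in the pulldown of every same-numbered pair, as were 12.5% of tested genes, and Kcnq1ot1 and Tug1 were lower in every pair, as were 14.8%. For Kcnq1ot1 the values of pair 2 were 18.49 and 18.45 CPM. By total counts each of the 4 held its direction in 2 of 3 pairs: pair 2 was reversed for Malat1 and Neat1, and pair 1 for Kcnq1ot1 and Tug1. Neat1 had the largest positive value, a log2 fold of 0.73, and Tug1 the largest negative one, -0.77. For these 2 genes the CPM values of the groups did not overlap. Across all tested genes, groups did not overlap in 10.4% (every pulldown above every input in 4.27%, below in 6.16%). On CPM by total counts none of the 4 was free of overlap, against 2.65% of tested genes. The median log2 fold of the 4 was 0.08, against 0.00 over all tested genes. TMM holds the latter near that value, so a shift shared by most genes cannot be seen on this scale. For the level in a bulk input library, fewer cells that hold an RNA and less of it per cell cannot be told apart.

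**Figure D1:**
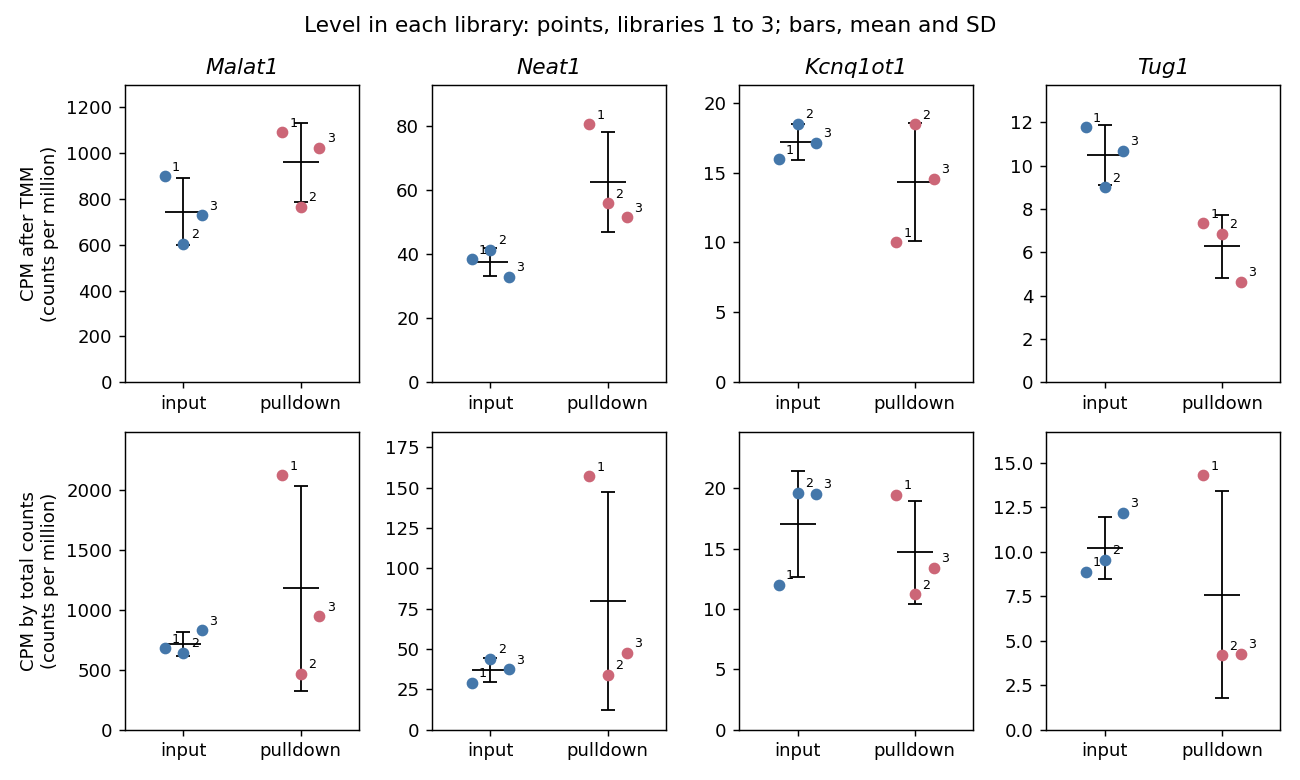
Levels of the 4 RNAs in each library, as CPM after TMM (top row) and CPM by total counts (bottom row); points are libraries numbered 1 to 3, bars the mean and SD of 3. After TMM the groups are apart for Neat1 and Tug1, while by total counts pulldown 1 stands far above the others for Malat1 and Neat1 and all 4 genes overlap.

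Malat1, the speckle RNA, was the most abundant of the 4 by counts. It was counted 2597, 1212 and 3276 times in input libraries 1 to 3, and 1637, 3236 and 3100 times after pulldown. It ranked 26th to 48th among all genes of a library and at rank 2 or 3 among the 277 genes with a read that GENCODE M21 classes as long noncoding. It made up 89.8% to 93.5% of the reads of the 4 genes in every library. As a share of gene counts it took 0.0678%, 0.0643% and 0.0833% of the inputs, and 0.213%, 0.0466% and 0.0946% of the pulldowns. The exact 95% intervals of these shares were narrow, from 0.203% to 0.223% for pulldown 1 and from 0.0450% to 0.0482% for pulldown 2. By this share pulldown 2 lay below every input and pulldowns 1 and 3 above every input.

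After TMM, the inputs held 900, 606 and 730 CPM of Malat1 and the pulldowns 1091, 766 and 1025 CPM. Pulldowns 1 and 3 were above every input, and pulldown 2 fell inside the input range. The means were 745 ± 148 CPM for input and 961 ± 172 for pulldown (n = 3 per group, SD). The log2 fold was 0.37 (95% interval -0.70 to 1.44, SE 0.50), with an edgeR adjusted p = 0.968. This interval allows anything from a 1.63-fold lower to a 2.71-fold higher level. With total-count scaling the log2 fold was 0.71 (SE 0.52), and it was not called there either (adjusted p = 1.00, edgeR).

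Neat1, the paraspeckle scaffold, was counted 111, 83 and 148 times in input libraries 1 to 3, and 121, 237 and 156 times after pulldown. After TMM the inputs held 38.5, 41.5 and 33.0 CPM and the pulldowns 80.6, 56.1 and 51.6 CPM. Every pulldown library was above every input library, and pulldown 1 was the highest. The means were 37.6 ± 4.3 CPM for input and 62.8 ± 15.6 for pulldown (n = 3 per group, SD), a log2 fold of 0.73 (95% interval -0.05 to 1.51, SE 0.36). The unadjusted p was 0.0629 and the adjusted p = 0.825 (edgeR). Of all tested genes 96.5% had a lower log2 fold, and 55 genes with a positive one had a smaller p. At an unadjusted p under 0.05, a cut that Neat1 missed, 2.27% of tested genes were higher.

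How far Neat1 stood apart depended on the scaling and on pulldown 1. By total counts the inputs held 29.0, 44.1 and 37.6 CPM of Neat1 and the pulldowns 157, 34.1 and 47.6, and the groups overlapped. The order of the groups after TMM therefore does not hold for pulldown 2 on the unscaled values. Without pulldown 1 the log2 fold was 0.53 (adjusted p = 0.830, edgeR).

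Kcnq1ot1, the imprinted silencing RNA, was counted 46, 37 and 77 times in input libraries 1 to 3, and 15, 78 and 44 times after pulldown. The inputs held 15.9, 18.5 and 17.1 CPM after TMM and the pulldowns 10.0, 18.5 and 14.5 CPM. On this scale the inputs lay close together, pulldown 2 lay just under the highest input, and pulldowns 1 and 3 were below every input. By total counts the inputs held 12.0, 19.6 and 19.6 CPM and the pulldowns 19.5, 11.2 and 13.4 CPM. There the inputs were spread out, and pulldowns 1 and 3 lay above input 1. The means were 17.2 ± 1.3 CPM for input and 14.3 ± 4.2 for pulldown (n = 3 per group, SD). The log2 fold was -0.21 (95% interval -0.83 to 0.40, SE 0.29), with an edgeR adjusted p = 0.968. It was -0.04 without pulldown 1 and -0.46 without pulldown 2.

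Tug1 was the scarcest of the 4 by counts, counted 34, 18 and 48 times in input libraries 1 to 3, and 11, 29 and 14 times after pulldown. The inputs held 11.8, 8.99 and 10.7 CPM after TMM and the pulldowns 7.33, 6.86 and 4.63 CPM. Every pulldown library was below every input library. The means were 10.5 ± 1.4 CPM for input and 6.27 ± 1.44 for pulldown (n = 3 per group, SD), and the edgeR fit put the level 1.71-fold lower in the pulldown. The log2 fold was -0.77 (95% interval -1.39 to -0.16, SE 0.28), with an unadjusted p of 0.0175 and an adjusted p = 0.825 (edgeR). At an unadjusted p under 0.05, 3.35% of tested genes were lower, and 26 genes with a negative log2 fold had a smaller p than Tug1. Whether Tug1 met this cut depended on the fit. With total-count scaling its log2 fold was -0.64 (SE 0.69, unadjusted p = 0.356, edgeR). DESeq2 gave -0.75 (SE 0.49, unadjusted p = 0.125), and scaling to all reads an unadjusted p of 0.219 (edgeR). The other alternatives on all 6 libraries that tested Tug1 gave 0.0135 (limma-voom) to 0.0259 (edgeR without a filter). By total counts the groups overlapped, since pulldown 1 had 14.3 CPM against 8.88 to 12.2 in input, while pulldowns 2 and 3 had 4.17 and 4.27 CPM.

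**Figure D2:**
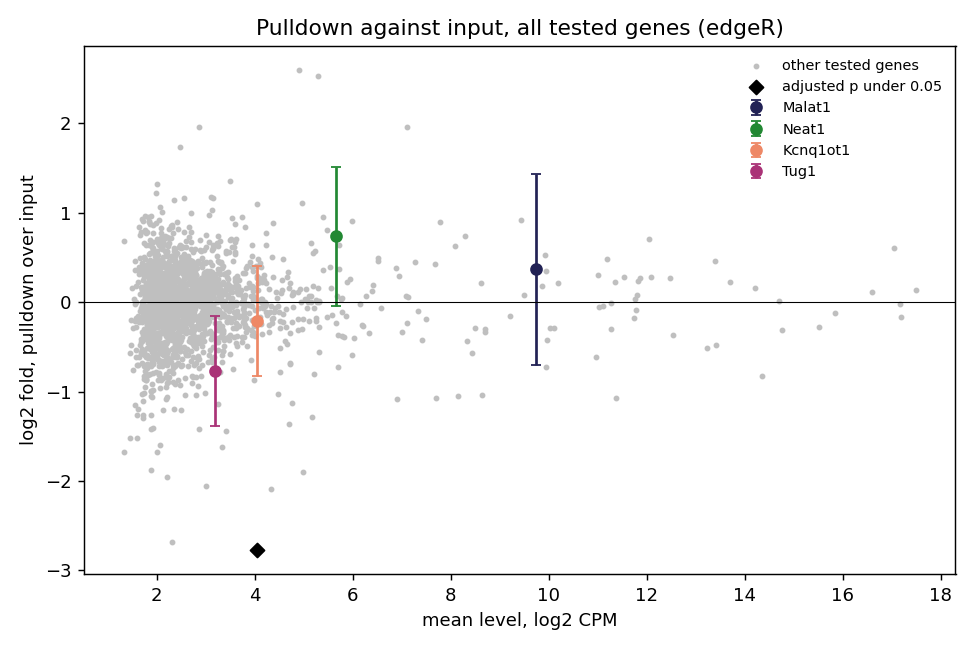
Log2 fold of pulldown over input against mean level (log2 CPM) for every tested gene, by edgeR; grey points are other genes, coloured points the 4 RNAs with 95% intervals, and the diamond the 1 gene called. The intervals of Malat1, Neat1 and Kcnq1ot1 cross 0, and that of Tug1 runs from -1.39 to -0.16.

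Counting error, which reflects depth alone, was 1.75% to 2.87% of a library's count for Malat1 and 6.50% to 11.0% for Neat1. It was 11.3% to 25.8% for Kcnq1ot1 and 14.4% to 30.2% for Tug1, the scarcer RNAs. The CPM spread between libraries (SD over mean, n = 3 per group) was 19.8% in input and 17.9% in the pulldown for Malat1, 7.41% and 29.5% for Kcnq1ot1, and 13.4% and 23.0% for Tug1. The half-widths of the 95% intervals were 0.61 for Tug1, 0.62 for Kcnq1ot1, 0.78 for Neat1 and 1.07 for Malat1 on the log2 scale. With the SE found here, a smaller fitted log2 fold in either direction would have missed an unadjusted p under 0.05 (edgeR). The smallest true change that could be found was not computed.

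Levels of different genes can be compared only per length of transcript. By the longest GENCODE transcript, Malat1 had 107 ± 21 CPM per kilobase in input, Neat1 1.81 ± 0.21, Tug1 1.56 ± 0.21 and Kcnq1ot1 0.185 ± 0.014 (SD, n = 3 each). In single input libraries Malat1 had 43.4 to 69.6 times the CPM per kilobase of Neat1. These are reads divided by a transcript length, not abundances of intact RNA. Where along a transcript the reads lie is not known. The part of the Malat1 reads from its tRNA-like piece was not measured, so its level per kilobase may not hold for the whole transcript. Neat1 and Tug1 were neighbours in this order, with overlapping values in input (1.59 to 2.00 and 1.34 to 1.75 CPM per kilobase). Kcnq1ot1 had more reads than Tug1 in every library but at most 0.227 times its level per kilobase. In the pulldown Malat1 had 138 ± 25 CPM per kilobase, Neat1 3.02 ± 0.75, Tug1 0.934 ± 0.215 and Kcnq1ot1 0.154 ± 0.045, and the values of Neat1 (2.48 to 3.88) no longer overlapped those of Tug1 (0.689 to 1.09).

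How far Neat1 lay from its neighbours in this order rests on which transcript the authors' annotation held, and the sources used here do not name it. Neat1 makes a short and a long form from the same start. By Neat1-202, a GENCODE transcript of 3004 nucleotides and 2 exons, its level was 12.5 ± 1.4 CPM per kilobase in input and 20.9 ± 5.2 in the pulldown. That was still below Malat1 and well above Tug1, both by their longest transcripts. Whether Neat1-202 matches the short form was not examined, and GENCODE also holds shorter Neat1 transcripts, of 1030 and 711 nucleotides. By Neat1-202, Malat1 had 6.28 to 10.1 times the CPM per kilobase of Neat1 in single input libraries. The fold between pulldown and input does not depend on the length used.

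**Figure D3:**
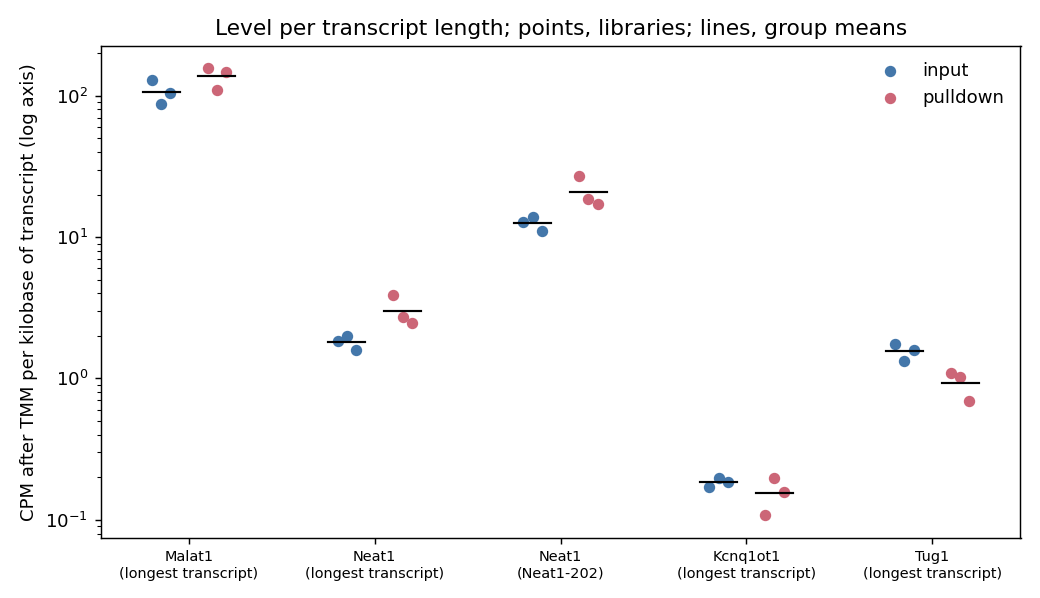
Level per kilobase of transcript (CPM after TMM, log axis) in each library, by the longest GENCODE transcript and, for Neat1, also by Neat1-202 (3004 nucleotides). Points are libraries and lines group means. Malat1 lies above the others in every library, and Neat1 and Tug1 overlap in input when the longest transcripts are used.

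Ratios between 2 genes of the same library need no scaling between libraries. The ratio of Malat1 to Tug1 reads was 76.4, 67.3 and 68.2 in the inputs and 149, 112 and 221 in the pulldowns. The ratio of Neat1 to Tug1 was 3.26, 4.61 and 3.08 in the inputs and 11, 8.17 and 11.1 in the pulldowns. For both ratios all 3 pulldowns lay above all 3 inputs. The median ratio was 2.18 times the input median for Malat1 to Tug1 and 3.37 times for Neat1 to Tug1. Reads of Tug1 were thus scarcer relative to those of Malat1 and Neat1 after pulldown, although none of the 3 genes was called on its own.

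Other genes behaved likewise toward Malat1 and, more often, toward Neat1. Of the other tested genes, 13.9% had a count ratio to Malat1 that was lower in every pulldown than in every input, and for the ratio to Neat1 this share was 37.7%. A lower ratio to Neat1 is therefore common in these libraries and not particular to Tug1. Neat1 to Kcnq1ot1 gave 2.41, 2.24 and 1.92 in input and 8.07, 3.04 and 3.55 in the pulldown, also apart. The remaining ratios overlapped between the groups. Malat1 to Neat1 was 23.4, 14.6 and 22.1 in input and 13.5, 13.7 and 19.9 in the pulldown. The pulldown median was 0.617 times the input median. This ratio of 2 nearby genes of chromosome 19 was lower in the pulldown of 3 of 3 pairs. So was the ratio to Neat1 of at least 37.7% of the other tested genes, the share with every pulldown below every input. Kcnq1ot1 to Tug1 was 1.35, 2.06 and 1.60 in input and 1.36, 2.69 and 3.14 in the pulldown. Differences between the folds of 2 genes were not tested.

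**Figure D4:**
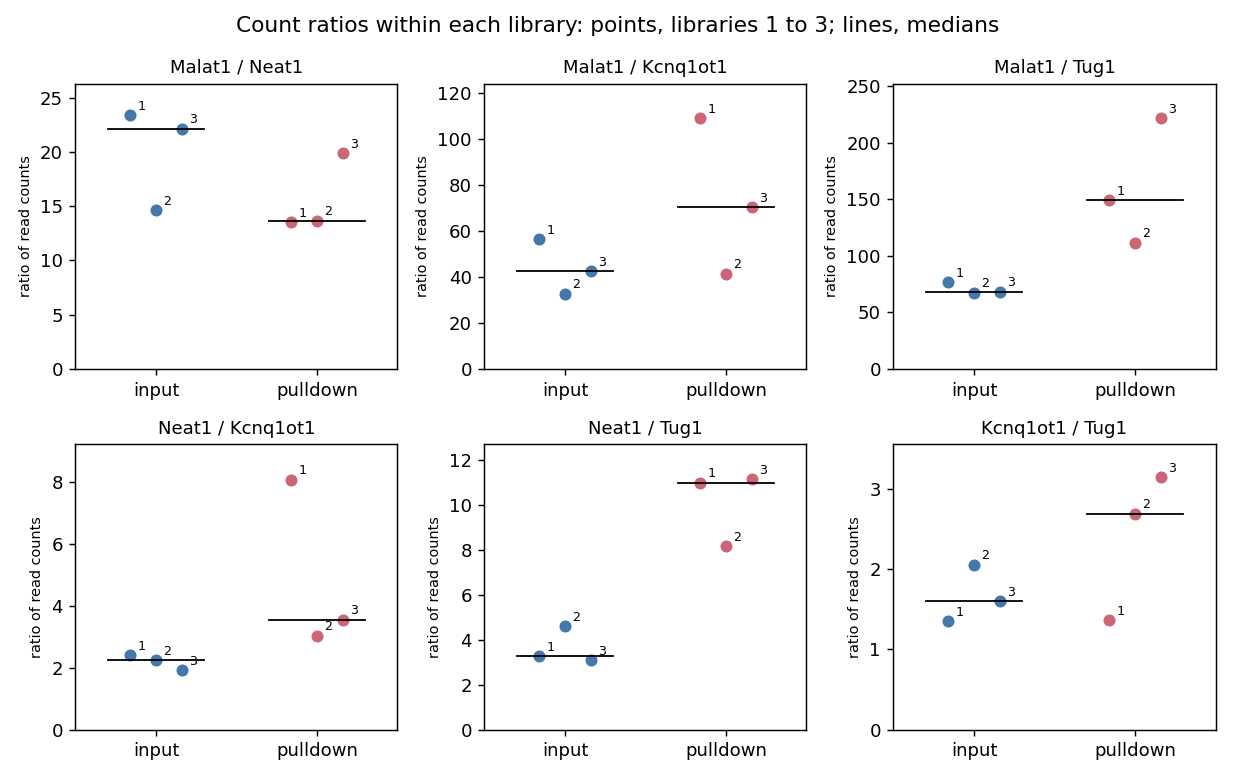
Ratio of the read counts of 2 genes within each library, for the 6 pairs; points are libraries numbered 1 to 3 and lines the medians of 3. Malat1 to Tug1, Neat1 to Tug1 and Neat1 to Kcnq1ot1 are higher in all 3 pulldowns than in all 3 inputs, and the other ratios overlap.

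Pulldown 1 set the extremes of several genes at once. It had the highest CPM after TMM of Malat1 (1091) and Neat1 (80.6) and the lowest of Kcnq1ot1 (10.0). By total counts it had the highest Kcnq1ot1 of the pulldowns, 19.5 CPM, close to the highest inputs. By total counts it held 0.232% of its reads on the 4 genes, against 0.0717% to 0.0902% in input and 0.0515% and 0.101% in pulldowns 2 and 3. It was also the shallowest library and the one with the highest TMM factor, and its correlation with the other libraries was 0.883 to 0.905 on log2 CPM over tested genes, against 0.926 to 0.952 among the rest. The part of depth in these extremes was not tested. Without pulldown 1, the log2 folds were 0.27 for Malat1, 0.53 for Neat1, -0.04 for Kcnq1ot1 and -0.84 for Tug1, none called (edgeR). Among the fits that left out a library, Tug1 had its smallest edgeR adjusted p there, 0.471. Its own unadjusted p did not fall: it was 0.0191 (SE 0.33), against 0.0175 (SE 0.28) with all 6 libraries (edgeR). The adjusted p also depends on the other tested genes, of which 6 were called higher and 5 lower in that fit.

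The genes with the most similar pattern over the 6 libraries were sought among 641 others with a mean of at least 20 counts, by Pearson's r on log2 CPM. The r values describe 6 libraries that share their depth and scaling. For Malat1 they were Rad23b (r = 0.988), which works in DNA repair and proteasomal turnover, Pik3r1 (0.926), a regulatory subunit of PI3 kinase, and Copa (0.916), a subunit of the COPI vesicle coat. For Neat1 they were Myh9 (0.985), a non-muscle myosin heavy chain, Acsl6 (0.97), an acyl-CoA synthetase, and Hnrnpab (0.974), an RNA-binding protein. For Tug1 they were Pcm1 (0.965), a centriolar satellite protein, Arl8b (0.960), a lysosomal GTPase, and Zfp36l2 (0.930), an mRNA decay factor.

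For Kcnq1ot1 they were Snora52, a box H/ACA snoRNA (0.969), Rnu73b (0.965) and Rmrp, the RNA of RNase MRP (0.965). Of the 12 genes named for all 4, none was called, and the adjusted p ran from 0.582 for Acsl6 to 0.995 for Rnu73b (edgeR).

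Few other long noncoding RNAs had as many reads as these 4. Over all 6 libraries together Gas5 (3402097 reads) and Rian (18359) exceeded Malat1 (15058), and Rmrp (6126) and Gm12238 (2675) exceeded Neat1 (856). Further down, 2810013P06Rik (666) exceeded Kcnq1ot1 (297) and 2900060B14Rik (282) exceeded Tug1 (154). Gas5 and Rian are snoRNA hosts, and Rmrp is the RNA of RNase MRP. The part of these reads that came from short RNAs was not measured, so the counts do not rank levels of long RNA. GENCODE M21 classes 16 tested genes as long noncoding, the 4 included. Among these 16, 8 had positive and 8 negative log2 folds, the median was -0.06, and 1 was called, 2900060B14Rik, lower. Of 25 other nuclear or chromatin-associated long noncoding RNAs in the list, 16 were in the tables, 9 had a read and 2 were tested, neither of which passed. Rian, host of snoRNAs in the Dlk1-Dio3 region, had a log2 fold of -0.43 (SE 0.65), and Meg3, from the same region, 0.26 (SE 0.29). Xist, Tsix, Miat, Hotair, Jpx, Rmst and Sox2ot were at 0 reads in all libraries. Pvt1, a long noncoding RNA next to Myc, was counted 2 to 10 times per library.

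Long noncoding RNAs known more from the cytoplasm or as snoRNA hosts gave 5 tested genes of 19 listed, 3 with positive and 2 with negative log2 folds, none called. Gas5, whose introns hold snoRNAs, had 0.14 (SE 0.70), Snhg1, another snoRNA host, 1.18 (SE 0.36, edgeR adjusted p = 0.555), and Dnm3os, which carries microRNAs, 0.10 (SE 0.38). The median of these 5 was 0.10, beside 0.08 for Malat1, Neat1, Kcnq1ot1 and Tug1. The median log2 fold was -0.01 for the 1627 tested protein-coding genes, whose middle 50% of values lay between -0.27 and 0.23. Malat1 and Neat1 lay above that range, Tug1 below it and Kcnq1ot1 inside it.

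Genes of the bodies and machines that these RNAs are known to work with were read from fragments of their mRNAs, and none of them was called in either direction. Of 15 paraspeckle protein genes 8 were tested, 5 with positive and 3 with negative log2 folds (median 0.08). Sfpq, an essential paraspeckle protein, had 0.06 (SE 0.28), Matr3, a nuclear matrix protein, -0.40 (SE 0.37), and Tardbp, which encodes TDP-43, 0.38 (SE 0.53). Of 17 nuclear speckle protein genes 12 were tested, 3 with positive and 9 with negative log2 folds (median -0.22). Srrm2, a core scaffold of speckles, had -0.21 (SE 0.31), Son, another one, -0.26 (SE 0.26), and Srsf1, a splicing factor, -0.34 (SE 0.33).

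Among the genes of RNase P, which cuts the 3′ ends of Malat1 and Neat1, only that of its RNA subunit was tested. Reads of this RNA do not measure the enzyme. Of 13 genes listed for RNase P, RNase MRP and RNase Z, 2 were tested, Rpph1 and Rmrp, and neither was called. Rpph1, the RNA of RNase P, averaged 36.7 ± 11 CPM in input libraries against 16.7 ± 0.7 after pulldown (n = 3 per group, SD), a log2 fold of -1.13 with an edgeR adjusted p = 0.506 (SE 0.33). Its groups did not overlap after TMM, as in 10.4% of tested genes (pulldown below in 6.16%), and they did overlap by total counts. Rmrp had a log2 fold of -0.44 (SE 0.48). Elac2, the RNase Z that trims the tRNA-like end, was not tested, at 3 to 7 reads per library.

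In the imprinted domain around Kcnq1ot1, 5 of 13 listed protein-coding genes had a read. Cdkn1c, Slc22a18, Phlda2 and Ascl2, genes silenced on the paternal chromosome of this domain in some tissues, were at 0 reads in all 6 libraries, as was Kcnq1. A count of 0 allows up to 3 reads, which is 0.432 to 3.90 CPM by total counts, depending on the library. Cars, a tRNA synthetase gene at the edge of the domain, was the 1 tested gene, at 0.57 on the log2 scale (SE 0.41, edgeR adjusted p = 0.947). Of 16 Polycomb and related silencing genes 6 were tested, 3 with positive and 3 with negative log2 folds and none called. Rbbp4, a histone chaperone and part of PRC2, had -0.82 (SE 0.30, edgeR adjusted p = 0.825), Dnmt1, the maintenance DNA methyltransferase, 0.07 (SE 0.36), and Ehmt2, a histone H3 methyltransferase, -0.02 (SE 0.32).

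Of 16 listed RNA export genes, the bait included, 6 were tested, 2 with positive (Nxf3 and Ddx39b) and 4 with negative log2 folds, and none was called. The median with the bait was -0.33. Nxf1, the main mRNA export receptor, averaged 17.6 ± 0.8 CPM in input libraries against 11.4 ± 1.8 after pulldown (n = 3 per group, SD), a log2 fold of -0.65 with an edgeR adjusted p = 0.825 (SE 0.26). Xpo1, the exportin of proteins and of several RNA classes, had -0.36 (SE 0.32). Nxf3 itself stood at 0.53 on the log2 scale (SE 0.55, edgeR adjusted p = 0.968).

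Across settings the direction of the 4 RNAs was the same while their size was not. In 15 other fits, which changed the scaling, the filter, the tool or the block or left out 1 library each, all 58 values obtained kept the sign of the main test and none was called. Malat1 ran from 0.24 without input 2 to 0.71 with total-count scaling, and Neat1 from 0.53 without pulldown 1 to 1.09 with total-count scaling. Kcnq1ot1 ran from -0.46 without pulldown 2 to -0.04 without pulldown 1, and Tug1 from -0.90 without pulldown 2 to -0.58 without pulldown 3. The sign of each log2 fold was thus the same in these fits, which use the same 6 libraries and are not independent of each other.

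**Figure D5:**
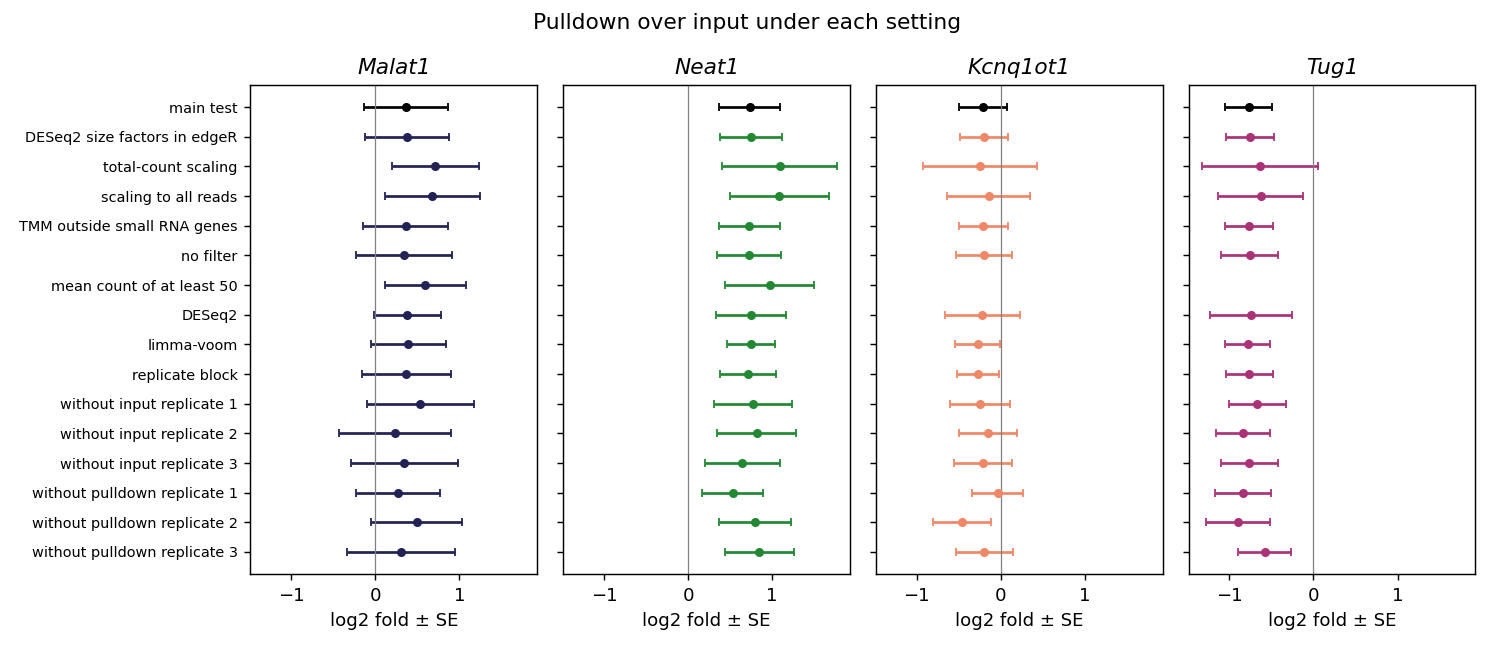
Log2 fold of pulldown over input (± SE) for each of the 4 RNAs in the main test, shown in black at the top, and under each other setting, 1 row each. Malat1 and Neat1 stay to the right of 0 and Kcnq1ot1 and Tug1 to the left, with Kcnq1ot1 at -0.04 without pulldown 1; Kcnq1ot1 and Tug1 have no value at a mean count of at least 50.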

How the data were processed

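Per the labels, a small RNA kit was used for 3 input and 3 pulldown libraries. Each deposited table gives the raw count of reads for every gene symbol in 1 library. The tables' names and summary lines show rRNA removal and HTSeq-count, and the submitters' processing notes name Bowtie, Partek and mm9. The sources used here do not give versions, counting mode, strand setting or annotation. The counter's 5 summary lines, 64.4% to 77.8% of all reads, name no gene and were left out. Reads with PCR copies are not independent molecules, so exact Clopper-Pearson 95% intervals and the floor of 3 counts cover counting error only.

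All 6 libraries entered the main test, run with edgeR 4.0.16 under R 4.3.3 (TMM, filterByExpr with a minimum count of 10, quasi-likelihood F test, Benjamini-Hochberg adjustment over 1852 genes, threshold 0.05). SE and intervals were derived from the F statistic. The fit was tested on simulated data. CPM values are after TMM unless total counts are named. All 4 members passed the filter. Of the tables' symbols 21777 matched GENCODE M21.

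Members and lists were chosen with earlier results of these data known. Named genes were the members, Nxf3, called genes, the 3 most abundant tested genes of each list, and the 3 genes per member with the highest r; list genes under the filter, Ddx39b, Morc2a, Gm12238 and 2810013P06Rik were named after their values were seen. Whether libraries of the same number share an experiment is not stated in the labels, so the main test had no block. Its p-values set the group difference against the spread between libraries within groups, estimated with information from all tested genes. No library pair was identical, and each differed by more than sampling noise. The labels name no day or run by which libraries could be split. DESeq2 1.42.0, limma-voom 3.58.1 and other settings were run as alternatives.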

Additional observations from a re-analysis of the deposited data

How the results depend on the processing

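All alternatives were planned, and none called any of the 4 RNAs or changed the sign of its log2 fold; at a mean count of at least 50, Kcnq1ot1 and Tug1 were not tested. The number of genes called higher, 0 in the main test (42 at an unadjusted p under 0.05), was 1 with scaling to all reads, with a mean count of at least 50, with DESeq2 and with the replicate block, 7 without a filter, and 0 to 6 when single libraries were left out. The number called lower, 1 in the main test, was 0 at a mean count of at least 50 and under total-count scaling, 2 with scaling to all reads and with TMM outside small RNA genes, 9 without a filter, 3 with the replicate block, and 0 to 5 when single libraries were left out (0 without pulldown 2, 2 without input 2, 5 without pulldown 1). The causes were not tested. Same-numbered libraries deviated together only weakly (r = 0.03, 0.07 and 0.14), although each correlated best with its own number; with the replicate block the log2 folds were 0.37 (Malat1), 0.71 (Neat1), -0.27 (Kcnq1ot1) and -0.76 (Tug1). Scaling to all reads moved the median of all genes to 0.10; relative to it the log2 folds were 0.58, 0.98, -0.25 and -0.73 in the same order. By total counts the mean CPM in the pulldown was 1180 for Malat1 and 79.6 for Neat1. Tug1 had 11 to 48 reads per library and Kcnq1ot1 15 to 78, so counting error alone was 14.4% to 30.2% and 11.3% to 25.8% of a library's count.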
